A study of Homo sapiens with 6 samples.

Results

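The LINC-named shRNAs are the 985 hairpins of a pooled library (12.5% of its 7873 shRNAs) that were designed against non-coding transcripts whose gene symbol begins with LINC. They were taken from the annotation of the library: the listed target transcript had an ENST, NR_ or XR_ identifier, the symbol began with LINC and held no antisense suffix, and 9 symbols were left out beforehand, of which 5, with 54 shRNAs, are listed in the annotation. The 985 shRNAs were listed against 207 transcripts of 169 symbols. Of these symbols, 126 had 5 shRNAs, 27 had more and 16 had fewer.

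The screen asked which long non-coding RNAs (lncRNAs) the human hepatocellular carcinoma (HCC) line HUH7 needs to survive. The libraries fall into 2 groups of 3. The input libraries hold the plasmid pool from which the lentivirus was made, without any cells. The selected libraries hold shRNA cassettes amplified from HUH7 cells that were exposed to the virus, put on puromycin 2 days later for 4 days, and then cultured for 4 weeks. No library of infected cells before the culture is among the 6, so packaging, infection, puromycin and growth cannot be told apart, and the level of the targeted transcripts was not measured in these counts. Separate cultures are not stated for the 3 libraries of a group, and each p-value therefore reflects only how much these libraries vary, possibly for technical reasons.

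LINC symbols are given to lncRNA genes that lie between protein-coding genes and have no better-known name or function. An shRNA is cut into a short guide strand that pairs with a target RNA and leads to its cleavage or repression, and pairing through the seed near the 5′ end of the guide is also enough to lower other RNAs. In a growth screen, an shRNA that slows the cells becomes rarer in the population and an shRNA that speeds their growth becomes more common. Many transcripts once named as intergenic have since been tied to a neighbouring gene or found to code for a small protein.

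Totals were 2323330 to 2612829 counts in the input libraries and 1525256 to 4013368 in the selected libraries, and the LINC-named shRNAs took 12.7% to 12.8% of each. Levels of single shRNAs below were scaled to a common library size (normalized counts). Where values are given simply as counts, mostly for rare shRNAs, they are unscaled and also depend on the library totals. Of the 985 members, 914 averaged 10 counts or more across the 6 libraries and were tested. Log2(fold change) is the input over the selected level, so a positive value means that the shRNA became rarer. Depleted shRNAs are those at 0.75 or higher on this scale, and enriched ones those at -0.75 or lower, each with an adjusted p of at most 0.05. The reads carry no molecular identifiers, so counting error is the least error a value can have.

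The sequences that carry the main results are shown here as target RNA sequence in DNA letters, 5′ to 3′, with the 7 bases that pair with the guide's seed (target positions 14 to 20, guide positions 2 to 8) in capitals. Members are named by symbol, listed transcript and the order in which the annotation lists the shRNAs of that transcript. The first set holds members that fell.
LINC00467 ENST00000423222 shRNA 4: cttcagatgatccTATGTTTc
LINC01146 NR_046094 shRNA 5: ggaagaataatgtCTTGAAAt
LINC00857 ENST00000432308 shRNA 4: ccctacatagcagAGAGATTt
LINC00857 ENST00000432308 shRNA 5: tgcttagtgtacaGGAGAAAt
LINC01194 ENST00000505877 shRNA 3: tgttgttatcataGCTCACTg
LINC00564 ENST00000567258 shRNA 4: attgtgaaggtctGCAGGTTg
LINC00339 ENST00000420503 shRNA 1: acccagagacacaAAGAAATa
LINC01205 NR_109841 shRNA 3: gaggatttattggCTTGATGt
LINC01006 NR_103858 shRNA 3: cctattgtgtgtcAGGCATTg
LINC00324 NR_026951 shRNA 2: gagacaaatatgaACGTTATt
The second set holds members that rose. Where a symbol stands in both sets, its shRNAs went opposite ways.
LINC01006 NR_103858 shRNA 5: agaggctctgaccAGTGGAAt
LINC00174 ENST00000416572 shRNA 1: gttcatgcatcaaATGCAATa
LINC01205 NR_109841 shRNA 4: agcacaaggtcagGAGTTCAa
LINC00271 ENST00000579057 shRNA 5: cttctcaaagaaaTCAGAGAt
LINC00263 ENST00000454935 shRNA 3: cactaaagattggGCAGTCAc
LINC01268 NR_038863 shRNA 5: tcaatgtttgatgACACTTAa
LINC00948 NR_038200 shRNA 5: tcaaacaatactcCTACCTTg
LINC01317 ENST00000366209 shRNA 2: ctcggcttactgcAAGATCTa
LINC00514 ENST00000571152 shRNA 4: ctccagcaagatcTCAGACCt

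Most LINC-named shRNAs kept their share of the population. The median log2(fold change) of the 914 tested members was -0.00, against -0.01 over all 7232 tested shRNAs, and 648 of them (70.9%) lay within 0.5 of 0, against 67.5% of the library. Depleted members numbered 45 (4.92%), in a library where 6.83% of the tested shRNAs were depleted. Enriched members numbered 40 (4.38%), against 5.85%. The library shares include shRNAs of the LINC symbols left out beforehand, some of which met the rules for a whole lncRNA given below. At any size, 127 members (13.9%, library 15.4%) were lower and 146 (16.0%, library 17.4%) were higher after selection. Input and selected libraries did not overlap for 444 members (48.6%, library 51.2%). The counts of calls rest on all 3 input libraries: without input library 1, 2 or 3, 16, 18 and 18 members were depleted and 26, 26 and 24 were enriched, and at any size 41, 37 and 37 were lower and 56, 60 and 57 were higher. Without selected library 1, 2 or 3, 62, 58 and 62 members were depleted and 48, 46 and 39 were enriched. Of the 45 depleted members 12 kept the call whichever library was left out, and of the 40 enriched members 15 did. No library share is given for the fits with a library left out, so these losses cannot be read as particular to LINC-named members.

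Among depleted members, the 5 with the highest input level lost between 0.75 and 1.17 on the log2 scale, and none had an input library as low as a selected one. LINC00605 NR_033938 shRNA 1 read 777, 840.2 and 807 normalized counts in the input libraries and 363, 379 and 360.3 in the selected libraries. The selected libraries had an SD of 10.2, the smallest of these 5 shRNAs. The log2(fold change) was 1.14 ± 0.09 (SE, n = 3 libraries per group, adjusted p = 0.000525 by edgeR's quasi-likelihood test), and the call held without any single library. This target matches 30 places in the genome, and transcripts of 2 genes, 1 of them protein-coding. The 3 other tested shRNAs against LINC00605 were not depleted, and shRNA 4 was enriched at -0.81 (adjusted p = 0.00333), a call lost without input library 2 (-0.71).

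LINC00467, a transcript studied in HCC and other carcinomas, gave the largest fall of these 5 members. Its shRNA 4 read 398, 429 and 418 in the input and 289, 121 and 160.1 in the selected libraries. All selected libraries were lower, with selected library 1 closest to the input. The log2(fold change) was 1.17 ± 0.27 (adjusted p = 0.0104, edgeR), and the target matches 1 place, chr1:211565247-211565267 of GRCh37 on the plus strand, in exon 3 of 6 of the GENCODE transcript. A further shRNA against LINC00467, shRNA 2, was lower at 0.46 (adjusted p = 0.0386), while shRNA 3, with 1163 normalized counts in the input, stayed at -0.02 ± 0.09. The candidate rule for a whole lncRNA, given below, was not met.

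LINC01146, now named HISLA after a lncRNA that stabilizes the hypoxia factor HIF-1α, had the most abundant depleted member. Its NR_046094 shRNA 5 read 886, 922 and 873 in the input and 595, 497 and 507 in the selected libraries. The log2(fold change) was 0.75 ± 0.09 (adjusted p = 0.00115, edgeR), just past the fold limit, and it was 0.73 without input library 2, 0.71 without selected library 2 and 0.72 without selected library 3. The target lies at chr14:88550477-88550497, in exon 3 of 4. Of the 10 shRNAs against LINC01146, 7 lay above 0 and 3 below, with a median of 0.38. At any size, 3 of the 10 were lower and 2 were higher. On the same exon, NR_046094 shRNA 4, at chr14:88550428-88550448, went from 985, 946 and 942 to 1126, 1187 and 1110.3 (log2(fold change) -0.25, adjusted p = 0.0192). ENST00000556673 shRNA 4, on another exon, had a mean of 1345 ± 10.9 before and 1719 ± 154 after selection (SD, n = 3; -0.35, adjusted p = 0.00735, edgeR). NR_046094 shRNA 1, which shares 11 target bases with the depleted NR_046094 shRNA 5, was lower as well (0.47, adjusted p = 0.00967, edgeR). So well-counted shRNAs against LINC01146 passed in both directions, while most of its shRNAs lay above 0.

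LINC00857, studied in lung and bladder carcinoma, and LINC00476 were the only symbols with 2 depleted members. LINC00857 ENST00000432308 shRNA 4 read 692, 713 and 648 in the input and 386, 449.9 and 321 in the selected libraries, a log2(fold change) of 0.83 ± 0.13 (adjusted p = 0.00243, edgeR). Without selected library 3 it was 0.70. On the same exon, shRNA 5 had 110, 88 and 76 unscaled counts in the input and 15, 43 and 77 in the selected libraries. Its log2(fold change) was 1.27 ± 0.30 (adjusted p = 0.0131, edgeR). The call was lost without input library 1 or 2, where its highest adjusted p was 0.0806. The pair lies in exon 2 of 2, at chr10:81977868-81977888 and chr10:81978228-81978248. Between them on that exon, shRNA 1 against chr10:81977903-81977923 was higher after selection, at 365 ± 34.6 against 262 ± 6.97 (SD, n = 3; log2(fold change) -0.47, adjusted p = 0.0193). The median over the 10 shRNAs against LINC00857 was -0.07.

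LINC01194 ENST00000505877 shRNA 3 read 382, 381 and 361 in the input and 124, 205 and 178 in the selected libraries. All 3 selected libraries were lower, at a log2(fold change) of 1.12 ± 0.18 (adjusted p = 0.00247, edgeR), and the call held without any single library. Its target, with 2 places in the genome, lies at chr5:12595821-12595841 in exon 2 of 3. ENST00000513051 shRNA 1, whose target at chr5:12595809-12595829 overlaps it, was higher instead (-0.62, adjusted p = 0.0139). ENST00000505877 shRNA 5, which shares 14 bases with ENST00000513051 shRNA 1, was lower (0.38, adjusted p = 0.0293, edgeR). ENST00000513051 shRNA 4, which shares 10 bases with the depleted shRNA 3, did not pass (-0.40, adjusted p = 0.0552). Of the 9 tested shRNAs against LINC01194, 3 were lower and 1 was higher at any size.

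The largest falls belonged to rare members. LINC01016 NR_038989 shRNA 1 had 135 counts over the input libraries and 0 over the selected ones, at least 50.3-fold lower on a floor of 3 counts over the group. LINC00339, a lncRNA next to the small GTPase gene CDC42, had an shRNA, ENST00000420503 shRNA 1, with 25, 29 and 36 counts in the input and 1, 0 and 1 in the selected libraries, a log2(fold change) of 5.38 ± 0.75 (adjusted p = 0.00161, edgeR). Its target is at chr1:22356821-22356841, in exon 3 of 3. A nearby target, chr1:22356788-22356808, belongs to ENST00000434233 shRNA 1, which rose from 158 ± 17.6 to 277 ± 15.0 (SD, n = 3; adjusted p = 0.00462) and fell short of the fold limit without input library 3 (-0.74).

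LINC01205 NR_109841 shRNA 3 had 27, 21 and 24 counts in the input and 0, 0 and 4 in the selected libraries, a log2(fold change) of 4.26 ± 0.80 (adjusted p = 0.00507, edgeR). Without input library 1 its mean count was below the minimum. LINC00574 NR_026780 shRNA 5 went from 34, 37 and 27 counts to 2, 1 and 10, a log2(fold change) of 3.10 ± 0.62 (adjusted p = 0.00620). Both kept all input libraries above all selected ones.

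The next members, in order of their fall among depleted members without overlap between the groups, also kept most of their remaining counts in a single selected library. LINC01006 NR_103858 shRNA 3 had 49, 38 and 48 counts in the input and 14, 1 and 1 in the selected libraries (log2(fold change) 2.87 ± 0.96, adjusted p = 0.0461, edgeR), and its adjusted p was 0.124 to 0.140 without an input library, 0.0892 without selected library 2 and 0.101 without selected library 3. LINC00670 NR_034144 shRNA 3 had 22, 24 and 27 counts in the input and 0, 0 and 13 in the selected libraries (2.76 ± 0.88, adjusted p = 0.0392), with 0.106 to 0.123 without an input library and 0.0512 without selected library 2. Most of the remaining counts came from selected library 1 in the first and all of them from selected library 3 in the second.
LINC00324 NR_026951 shRNA 2 had 37, 31 and 29 counts in the input and 1, 15 and 1 in the selected libraries (2.62 ± 0.78, adjusted p = 0.0307, edgeR), with 0.0881 to 0.108 without an input library. LINC01419 NR_122034 shRNA 5 had 28, 32 and 37 counts in the input and 1, 0 and 20 in the selected libraries (2.51 ± 0.83, adjusted p = 0.0443), with 0.110 to 0.136 without an input library. The LINC00324 target is unique, at chr17:8124068-8124088, in exon 3 of 3.

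Among enriched members, the 5 with the highest input level rose by 0.75 to 0.95 on the log2 scale. LINC01006 NR_103858 shRNA 5 led them, with 581, 624 and 565 in the input and 1098, 1229.7 and 1082 in the selected libraries, which all lay above the input. The log2(fold change) was -0.95 ± 0.08 (adjusted p = 0.000652, edgeR), and the call held without any single library. LINC01006 is now named RNF32-DT, a transcript that runs away from the start of RNF32. The enriched shRNA 5 (chr7:156265149-156265169) and the depleted shRNA 3 (chr7:156265229-156265249) of this symbol target the same last exon, 2 of 2, each at a unique place.

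LINC01502 NR_034017 shRNA 4 read 513, 542 and 499 in the input and 837, 868 and 943 in the selected libraries (log2(fold change) -0.77 ± 0.09, adjusted p = 0.000780, edgeR), and -0.74 without input library 3 and -0.72 without selected library 3. LINC00476 NR_023390 shRNA 3 read 536, 500.2 and 504 in the input and 763, 1029.8 and 893 in the selected libraries (-0.81 ± 0.11, adjusted p = 0.00166), and -0.70 without selected library 2. Their targets match 3570 and 580 places in the genome. LINC01268, now MROCKI, a lncRNA tied to the gene MARCKS in macrophages, was represented by NR_038863 shRNA 5, with 424, 481 and 459 in the input and 860.5, 695 and 748 in the selected libraries. Its log2(fold change) was -0.75 ± 0.11 (adjusted p = 0.00174), and -0.70 without input library 1 and -0.67 without selected library 1, with a unique target at chr6:114191213-114191233 in exon 3 of 3. LINC00996 NR_034033 shRNA 3 read 443, 450.2 and 424 in the input and 503, 756 and 948 in the selected libraries (-0.76 ± 0.19, adjusted p = 0.0159), the widest spread of these 5. Its adjusted p was 0.0591 to 0.0686 without an input library, and its log2(fold change) was -0.54 without selected library 3.

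The largest rises again started from low input levels. LINC01503, a lncRNA of squamous carcinomas, was represented by XR_432502 shRNA 1, which read 47.5, 46.6 and 49.7 in the input and 607, 147 and 97.1 in the selected libraries (log2(fold change) -2.51 ± 0.63, adjusted p = 0.0159, edgeR). Selected library 1 stood far above the other two, and without it the log2(fold change) was -1.34. The adjusted p was 0.0578 to 0.0619 without an input library. LINC01149 XR_242000 shRNA 2 had 3, 10 and 4 counts in the input and 21, 26 and 29 in the selected libraries (-2.08 ± 0.61, adjusted p = 0.0296), with 0.135 without input library 1 and 0.133 without input library 3.

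LINC00271, now AHI1-DT, gave a rise that held without any single library. Its ENST00000579057 shRNA 5 read 60.7, 45.5 and 55.9 in the input and 163, 152 and 282 in the selected libraries, a log2(fold change) of -1.89 ± 0.28 (adjusted p = 0.00212, edgeR). The target lies at chr6:135838095-135838115, in exon 4 of 4, and its 21 bases match 23 places. LINC00263, now OLMALINC, a lncRNA named for the maturation of oligodendrocytes, had a unique target at chr10:102133739-102133759 for ENST00000454935 shRNA 3. It went from 15, 26 and 15 counts to 48, 96 and 48 (-1.74 ± 0.49, adjusted p = 0.0242), with an adjusted p of 0.107 without input library 1, 0.105 without input library 3 and 0.0640 without selected library 2.

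LINC01247 NR_110251 shRNA 2 read 91.0, 73.9 and 94.2 in the input and 262, 223 and 215 in the selected libraries, a log2(fold change) of -1.43 ± 0.18 (adjusted p = 0.00134, edgeR). LINC00102 NR_037842 shRNA 5 read 123, 139 and 127 in the input and 289, 265 and 347 in the selected libraries, a log2(fold change) of -1.21 ± 0.16 (adjusted p = 0.00153). Both rises were similar in all selected libraries and held without any single library, and both targets are repeats, with 1859 and 12540 places in the genome. LINC00621 ENST00000577004 shRNA 4 went from 53.6, 45.5 and 51.7 to 61.1, 136 and 173 (-1.32 ± 0.35, adjusted p = 0.0204), with 0.0752 to 0.0899 without an input library and 0.0670 without selected library 3.

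Of the lncRNAs on a list of transcripts studied in liver or HCC, the library held 6 of 31 symbols (LINC00467, LINC00488, LINC00665, LINC01006, LINC01134 and LINC01146). Among 38 tested shRNAs against them, 3 were depleted (7.89%, library 6.83%) and 2 enriched (5.26%, library 5.85%), 9 were lower (library 15.4%) and 5 higher (library 17.4%) at any size, and the median log2(fold change) was 0.13. Every one of the 5 tested shRNAs against LINC01134 lay above 0, but only shRNA 2 passed, going from 514, 499 and 453 to 343, 359 and 321 (log2(fold change) 0.52 ± 0.11, adjusted p = 0.00798, edgeR), and its adjusted p was 0.0580 and 0.0517 without input libraries 1 and 2. Its target matches 30021 places. LINC00488 had the second enriched shRNA of the list, NR_026767 shRNA 4, which went from 64.9 ± 9.36 to 114 ± 24.2 (SD, n = 3; -0.80, adjusted p = 0.0383), a call that held in 1 of the 6 fits with a library left out, the one without selected library 2, with an adjusted p of up to 0.163 in the others. LINC00665 gave shRNAs between -0.36 and 0.54, none of them called.

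Of a list of lncRNAs studied in other cancers, the library held 23 of 57 symbols. Among the 140 tested shRNAs against these, 7 were depleted (5.00%, library 6.83%), 5 enriched (3.57%, library 5.85%) and 128 neither, with a median log2(fold change) of 0.02. LINC00174 ENST00000416572 shRNA 1 read 249.9, 296 and 266 in the input and 479.6, 484 and 696 in the selected libraries (-1.04 ± 0.17, adjusted p = 0.00254, edgeR), a rise that held without any single library at a unique target, chr7:65855108-65855128. LINC00924 NR_027132 shRNA 1 went from 1511, 1468 and 1423 to 2905, 2041 and 2438, which at -0.74 ± 0.11 (adjusted p = 0.00208) stopped just short of the fold limit. All selected libraries of both were above all input libraries. The 11 tested shRNAs against LINC00174 ranged from -1.04 to 2.07 with a median of 0.00, and only this 1 was called. At any size, 1 was lower and 2 were higher. LINC00174 ENST00000416572 shRNA 4, which shares 11 target bases with shRNA 1, stayed at 0.09 (adjusted p = 0.323, edgeR). The 3 tested shRNAs against LINC-ROR, a lncRNA of reprogrammed stem cells, ranged from -0.70 to 0.33.

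Since the library was designed, many of these genes have been renamed. A current RefSeq table kept the name of 132 of the 169 symbols and gave new names to 34, while 1 symbol now stands under several names and 2 were not in the table. The present entry is a protein-coding gene for 13 symbols, counting the one with several names. Of their 74 tested shRNAs, 2 were depleted (2.70%, library 6.83%) and 3 enriched (4.05%, library 5.85%), with a median log2(fold change) of 0.03. For some of the 13 the entry is a larger neighbouring gene, and 9 remain without these. The 9 had 52 tested shRNAs, of which 1 was depleted (1.92%) and 3 enriched (5.77%), with a median of -0.02. In comparison, 35 of the 680 tested shRNAs under unchanged names were depleted (5.15%) and 31 enriched (4.56%), with a median of -0.01. No difference between these groups was tested.

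Several of these 13 code for microproteins. LINC00116 is now MTLN, which codes for mitoregulin, a microprotein of the inner mitochondrial membrane. All 5 of its shRNAs were tested, none passed at any size, and they ranged from -0.08 to 0.50. LINC00493 is now SMIM26, a mitochondrial microprotein gene, whose 9 tested shRNAs ranged from -0.57 to 0.67 with none called. LINC00948 is now MRLN, for myoregulin, which restrains the calcium pump SERCA in muscle. One of its shRNAs, NR_038200 shRNA 5, chosen here after its values were seen, went from 387, 344 and 332 to 792, 765 and 627 (-1.03 ± 0.12, adjusted p = 0.000950, edgeR), all selected libraries above the input. Its target lies at chr10:61498781-61498801, in exon 2 of 4. Of the other 4, shRNA 2 was higher at -0.37 (adjusted p = 0.0224) and shRNA 4 was lower at 0.69 (adjusted p = 0.0303).

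LINC00514 is now GREP1, for a glycine-rich secreted protein. All 5 of its shRNAs were tested, and all 5 were higher after selection at an adjusted p of at most 0.05. They lie apart from each other within exon 4 of 4, from chr16:3044206 to chr16:3044425. The largest rise was that of ENST00000571152 shRNA 1, from 43.5, 48.9 and 50.7 to 126, 147 and 94.4 (-1.35 ± 0.26, adjusted p = 0.00507, edgeR). Next, shRNA 5 went from 81.9, 103 and 75.5 to 151, 131 and 166 (-0.78 ± 0.21, adjusted p = 0.0215), and shRNA 2 from 380.4, 365 and 375 to 763, 523 and 606 (-0.75 ± 0.14, adjusted p = 0.00491). The smaller rises were those of the better counted shRNAs. ENST00000571152 shRNA 4 went from 459, 500.2 and 504 to 769, 560.2 and 604 (-0.39 ± 0.13, adjusted p = 0.0415), and shRNA 3 from 444, 454 and 432 to 593, 557 and 515 (-0.32 ± 0.10, adjusted p = 0.0345). No selected library of any of the 5 was as low as an input library.

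The targets of the LINC00514 shRNAs differ in how often they occur. Only that of shRNA 4, at chr16:3044206-3044226, is unique, while shRNA 1 matches 4687 places, shRNA 2 matches 2257, shRNA 3 matches 971 and shRNA 5 matches 147. The shRNA with the unique target passed with the second smallest change. With the calling limit of 0.75, 2 of the 5 were enriched, shRNA 1 in every fit with a library left out and shRNA 5 in 2 of the 6. All 5 stayed below 0 in each of these fits, and 2 passed without input library 1, 2 or 3, 4 without selected library 3, and 5 without selected library 1 or 2. The median was -0.75, the lowest of the 157 symbols with at least 4 tested shRNAs.

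The 14 that have another lncRNA name had 87 tested shRNAs, of which 5 were depleted (5.75%, library 6.83%) and 3 enriched (3.45%, library 5.85%), with a median of 0.02. The 7 now named as divergent transcripts of a neighbour had 59, of which 3 were depleted and 3 enriched (5.08% each), with a median of 0.02. LINC00657 is NORAD, an abundant lncRNA that binds PUMILIO proteins and guards chromosome stability. Its shRNA 3 went from 389, 446 and 406 to 864, 672 and 554 (-0.74 ± 0.16, adjusted p = 0.00780, edgeR), with 3585 places in the genome. Its shRNA 4 went from 852 ± 28.9 to 1078 ± 96.1 (SD, n = 3; -0.34, adjusted p = 0.0145), while shRNA 5 fell from 204 ± 26.3 to 140.5 ± 4.81 (0.54, adjusted p = 0.0357). LINC01212, now SAMMSON, a melanoma survival lncRNA, ranged from -0.46 to 0.72 over 5 shRNAs with none called. LINC01021, now PURPL, a p53-regulated lncRNA, ranged from -0.50 to 0.51 over 4 with none called. LINC01540, now GAPLINC, first described in gastric carcinoma, ranged from -0.42 to 1.18 with none called.

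To take a lncRNA as a candidate, the rule given with the study's screen results was applied by symbol: 2 or more shRNAs with a log2(fold change) of 1 or higher, or 3 or more at 0.75 or higher, each with an adjusted p of at most 0.05. None of the 169 LINC symbols met it by edgeR's quasi-likelihood test, while 1.93% of the lncRNAs of the library with at least 2 tested shRNAs did (26 of 1348). The symbols left out beforehand bear on this count, since 2 of them met the rule when they were added back. It was met by 3 of the 169 with the replicate number as a block, by 4 without a filter on low counts and by 4 on fold change alone. At an unadjusted p of at most 0.05, 59 of the 914 tested members passed the fold limit of 0.75 in that direction, and 581 of the 7232 tested shRNAs of the library did. DESeq2, with or without its beta prior, also gave 0. Without selected library 1, 2 or 3, the rule was met by 2, 3 and 1 symbols, LINC00339 and LINC00476 in the first case, LINC00476, LINC01205 and LINC01504 in the second and LINC01194 in the third.

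In the mirrored direction the rule was met by LINC01205 (the library share is 1.56%), but by no symbol with RLE factors, library totals only, an average of 100 counts or more, shRNAs grouped by listed transcript, or DESeq2 with or without its beta prior. LINC01205 NR_109841 shRNA 4 went from 137, 118 and 138 to 325, 212 and 277 (-1.04 ± 0.19, adjusted p = 0.00462, edgeR), and NR_109842 shRNA 4 from 112, 125 and 107 to 246, 228 and 216 (-1.001 ± 0.16, adjusted p = 0.00268). Each passed without any single library at an adjusted p of at most 0.05, but the second sits at the limit of -1, and without input library 1, 2 or 3 or selected library 1 the count of symbols that met the rule was 0. It was 3 without selected library 2, where LINC00514 and LINC00683 joined LINC01205. In that same fit LINC01205 also met the candidate rule, so it met the rule in both directions.

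Of all 10 shRNAs against LINC01205, 4 were higher and 2 lower at any size. The lower ones were the rare shRNA 3 of NR_109841 and NR_109842 shRNA 1, which went from 655, 656 and 625 to 408, 438 and 409.8 (0.62 ± 0.09, adjusted p = 0.00190, edgeR). The higher ones below the fold limit were NR_109841 shRNA 1 at -0.38 and shRNA 5 at -0.48, while NR_109841 shRNA 2 at -0.24 and NR_109842 shRNAs 2, 3 and 5, at 0.46, -0.22 and 0.98, did not pass. The 2 listed transcripts have their targets in different places, in exon 5 of 5 from chr3:109213709 to chr3:109213915 and in exon 2 of 2 from chr3:109137118 to chr3:109137191. On the first of these exons lie both the depleted shRNA 3 (chr3:109213709-109213729) and the enriched shRNA 4 (chr3:109213779-109213799).

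The median absolute difference of log2(fold change) was 0.482 over the 2643 pairs of tested members of 1 symbol and 0.480 over pairs of different symbols. Of the 169 symbols, 99 had no called shRNA, 57 had 1, 11 had 2 and 2 had 3. A depleted shRNA was found for 43 symbols, an enriched one for 36, and both for 9. No library share is given for these counts of symbols. Among single shRNAs, 4.92% of tested members were depleted (library 6.83%) and 4.38% enriched (library 5.85%). In the 157 symbols with at least 4 tested shRNAs, the range within a symbol had a median of 1.21 (library lncRNAs 1.24), and 115 of them (73.2%, library 66.1%) had a median within 0.25 of 0. All tested shRNAs lay above 0 in 8 of the 157 symbols (5.10%, library 4.13%) and below 0 in 8 (5.10%, library 4.54%).

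Among symbols with at least 4 tested shRNAs, the highest medians were those of LINC01359 (0.67), LINC01289 (0.53), LINC00564 (0.48), LINC00324 (0.47) and LINC01059 (0.46). LINC01359, whose locus overlaps that of the kinase gene JAK1, had 3 of 5 shRNAs lower at any size, and shRNA 1 among them went from 734, 755 and 708 to 417, 560.2 and 585 (0.48 ± 0.12, adjusted p = 0.0181, edgeR). None of its 5 passed without input library 1, 2 or 3, although all stayed above 0. LINC00324 had all 5 shRNAs above 0, between 0.16 and 2.62, each with a unique target, and 2 were lower at any size, but 0 without any 1 of the input libraries. LINC00564 ENST00000567258 shRNA 4, at a unique target on chromosome 13, went from 127, 128 and 131 to 34.1, 66.3 and 29.5 (1.56 ± 0.32, adjusted p = 0.00712).

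Among the same symbols, the lowest medians were those of LINC00514 (-0.75), LINC01317 (-0.58), LINC01149 (-0.53), LINC00882 (-0.43) and LINC01502 (-0.42). Of the 5 tested LINC01149 shRNAs, only 1 averaged 100 counts or more. LINC01317 had 3 of 5 shRNAs higher at any size, of which ENST00000366209 shRNA 3 alone was enriched, going from 30.4, 44.3 and 34.2 to 91.6, 83.4 and 58.3 (-1.09 ± 0.31, adjusted p = 0.0265). That call was lost without input library 1, 2 or 3 (adjusted p up to 0.128) and with the replicate block. LINC01317 shRNA 2, with a unique target at chr2:34522580-34522600, went from 530.1, 491 and 570.2 to 837, 902 and 822 (-0.69 ± 0.09, adjusted p = 0.00151, edgeR), and shRNA 1, at chr2:34511791-34511811, from 298 ± 16.2 to 445 ± 50.6 (SD, n = 3; -0.58, adjusted p = 0.00953). The selected libraries were above the input in both. GENCODE release 44 lists this transcript under the name LINC01320, with these targets in exons 6 and 5 of 6. Without input library 1 or 3 a single LINC01317 shRNA passed, and 2 passed without input library 2.

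The symbols with the most shRNAs lay close to 0. LINC01184, now SLC12A2-DT, had 27 shRNAs over 6 listed transcripts, of which 24 were tested with a median of -0.11, and 1, XR_251865 shRNA 4, was enriched, going from 152 ± 17.9 to 318 ± 23.5 (SD, n = 3; -1.06, adjusted p = 0.00168, edgeR). LINC01234, studied in gastric carcinoma, had 20, of which 18 were tested with a median of 0.22 and none was called. Its highest value was that of NR_110025 shRNA 3, which went from 1038, 1008 and 1081 to 535, 762 and 649 (0.67 ± 0.12, adjusted p = 0.00366). LINC00476, now ERCC6L2-AS1, had 20, of which 18 were tested with a median of 0.16, 2 depleted and 1 enriched.

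Calls in opposite directions were most numerous in LINC00476 and LINC01205, with 3 each, while the 7 other symbols with both kinds of call, LINC00339 among them, had 1 of each. In LINC00476, ENST00000448465 shRNA 5 had 61, 43 and 58 counts in the input and 11, 3 and 22 in the selected libraries (2.27 ± 0.56, adjusted p = 0.0146, edgeR), and its highest adjusted p without an input library was 0.0695. ENST00000429781 shRNA 3 went from 168, 173 and 161 to 75.4, 101 and 113 (0.77 ± 0.20, adjusted p = 0.0183), and its call did not hold when input library 1, 2 or 3 or selected library 1 was left out, with a lowest log2(fold change) of 0.64 and a highest adjusted p of 0.0884. The enriched member of LINC00476 was NR_023390 shRNA 3, described above.

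Some targets overlap. In 74 symbols, 128 pairs of tested members shared at least 10 target bases, and their median absolute difference was 0.547, against 0.481 for the other pairs of 1 symbol. In 24 of the 128 pairs 1 shRNA was called and the other was not, and in 2 pairs both were. The largest difference was in LINC00574, where shRNA 1 (308, 248 and 263 in the input, 383, 512 and 552 in the selected libraries, log2(fold change) -0.83 ± 0.16, adjusted p = 0.00538, edgeR) shared 13 bases with the depleted shRNA 5 (3.10). The same shRNA 5 shared 12 bases with shRNA 3 (0.27). In LINC01503, shRNA 1 (-2.51) shared 11 bases with shRNA 4 (0.20). The partners with the extreme values were rare, with mean input levels of 34.8 and 47.9.

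Calls lay mostly among rare members. When all tested shRNAs were divided into 4 equal parts by mean input level, the lowest part (under 141 normalized counts) held 228 members with 25 depleted (library 11.3%) and 23 enriched (10.1%, library 13.4%). The highest part (over 499) held 239 members with 3 depleted (1.26%, library 2.71%) and 3 enriched (1.26%, library 0.830%). The standard deviation of the log2(fold change) was 1.14 among members of the lowest part and 0.341 among those of the highest. In contrast, the share of members that passed at any size was 22.4% in the lowest part and 35.6% in the highest (library 27.0% and 39.2%).

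Repeated sequence was common among the targets. The 21 bases matched 1 place in GRCh37 for 294 members, 2 to 100 places for 309, more than 100 for 339 (34.4%, other shRNAs against non-coding transcripts 33.2%) and none for 43. Transcripts of more than 1 GENCODE gene were matched by 454 members, and a transcript of a protein-coding gene by 374. Of the 270 tested members with a unique place, 15 were depleted (5.56%, library 7.13%) and 12 enriched (4.44%, library 5.87%). Of the 325 with more than 100 places, 17 were depleted (5.23%, library 6.31%) and 18 enriched (5.54%, library 5.97%). The listed gene itself was matched by 965 of the 985 members, while 14 matched the listed transcript under another name, 5 matched other genes only and 1 matched no transcript.

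Members also share seeds. The 914 tested members carried 686 different seeds, and 20 seeds were carried by at least 4 of them. The most frequent, CCTGTAA, was found in 18 members of 17 symbols, 3 of them enriched and none depleted (median -0.04), among them LINC00102 NR_037842 shRNA 5. The 97 other tested shRNAs of the library with this seed had 2 enriched and 3 depleted (median -0.10). GCTAATT was carried by 12 members of 12 symbols, of which 9 lay above 0 and 1, LINC00605 NR_033938 shRNA 1, was depleted (median 0.26). Of the 83 other shRNAs with it, 14 were depleted and none enriched (median 0.17). Over all tested shRNAs of the library, 6.83% were depleted and 5.85% enriched. No seed was tested against these shares.

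Of the 71 members that were too rare to be tested, LINC00894 ENST00000425602 shRNA 1 had 40 counts over the input libraries and 0 over the selected ones, at least 14.9-fold lower, and LINC00564 ENST00000567258 shRNA 5 had 34 and 0, at least 12.7-fold lower. LINC01234 ENST00000550905 shRNA 2 had 12 and 0, at least 4.47-fold lower. In the other direction, LINC00861 NR_038446 shRNA 1 had 0 counts over the input libraries and 11 over the selected ones, at least 3.28-fold higher. LINC00444 ENST00000435617 shRNA 3 and LINC01044 ENST00000413637 shRNA 4 had 4 counts in the input and 0 after selection, and LINC01515 ENST00000433152 shRNA 2 had 0 and 6. These bounds use a floor of 3 counts over the group and cover counting error only.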

How the data were processed

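The shRNA cassettes of 3 input plasmid libraries and 3 libraries of selected HUH7 cells were amplified by PCR and sequenced. The deposited values are whole-number counts of reads per shRNA, which the authors made by trimming (cutadapt 1.4.2), alignment to the 7873 shRNA sequences (BWA 0.7.10) and counting (SAMtools 1.3), with no normalization; the versions stand in the submitters' processing notes. The members and lists were chosen with earlier results of these data known.

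The counts were fitted with edgeR 4.0.16 in R 4.3.3 (TMM factors, quasi-likelihood test, shRNAs with an average of 10 counts or more), with Benjamini-Hochberg adjustment over all 7232 tested shRNAs. All adjusted p-values come from this fit unless another is named. Standard errors were obtained by dividing the absolute log2(fold change) by the square root of F. The fold limits follow the study's legend and candidate rule. The fitting code was tested on simulated data. Alternatives were RLE factors, library totals, other count minimums, DESeq2 1.42.0 with and without a beta prior, a replicate block, each library left out, and other groupings of the shRNAs.

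Targets of 21 bases were matched exactly to GRCh37, on both strands. They were also matched exactly to GENCODE release 44 transcripts lifted to it, on the same strand only. Python 3.11.15, numpy 2.4.6 and pandas 2.3.3 were used. Present gene names came from a RefSeq table on GRCh38, used for names only. Named shRNAs are those of symbols meeting a rule, the 8 largest changes in each direction without overlap between groups, the 5 most abundant called in each direction, the smallest adjusted p-values of each list, symbols with the most shRNAs, the highest and lowest medians, or calls in opposite directions, overlapping pairs, and shRNAs at 0 in 1 group. Others were added after their values were seen. Sequences from chromosome 8 are not printed.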

Additional observations from a re-analysis of the deposited data

How the results depend on the processing

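More members were depleted (45) than enriched (40), but at an average of 100 counts or more 24 were depleted and 27 enriched, and without any 1 input library fewer were depleted than enriched. At any size fewer were lower (127) than higher (146), but with library totals only 133 were lower and 126 higher. The median of LINC01149 was -0.53 over 5 tested shRNAs. At an average of 100 counts or more only 1 of these was tested, and its value was 0.35. With 1 library left out the LINC01149 median ranged from -0.57 (without input library 3) to 0.0437 (without selected library 3). With 1 library left out, depleted members ranged from 16 (without input library 1) to 62 (without selected library 1) and enriched members from 24 (without input library 3) to 48 (without selected library 1). At any size, 37 to 177 were then lower and 56 to 195 were higher. The candidate rule, met by 0 symbols, was met by 4 without a filter on low counts, 4 by fold change alone, 2 with the left-out symbols added back and 0 to 3 with a library left out. The mirrored rule, met by 1, was met by 0 with RLE factors, with library totals only, at an average of 100 counts or more, with DESeq2 with or without the beta prior and by listed transcript, by 2 without a filter and by 2 with the left-out symbols, and by 0 to 3 with a library left out. The cause was not tested. Depth limits what can be seen of the 71 untested members.

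With the replicate number as a block, 3 symbols met the candidate rule, and 43 of the 45 depleted and 32 of the 40 enriched members kept their call. The labels do not state whether the numbers pair the libraries. The correlations of same-numbered deviations were -0.01, 0.01 and -0.03, and no input library correlated best with the selected library of its own number. Plasmid and cell libraries need not share such deviations, so these values cannot decide whether the numbers pair them.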
